A study of Mus musculus with 2 samples.

Results

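Regions covered by a DLX2 CUT&Tag peak in both replicates were examined where they lay inside protein-coding genes of less than 300 kb. A shared region was a segment of at least 1 bp that a peak of each replicate covered, on chromosomes 1 to 19. It was kept if it lay inside a RefSeq protein-coding gene of the GRCm38 build, more than 2 kb from every protein-coding gene end, and if no coding gene of 300 kb or more overlapped it. The rule left 3416 regions of the 10812 shared regions, a share of 31.6% (95% Wilson interval 30.7 to 32.5%, which covers counting error only). The rest comprised 1243 regions inside coding genes of 300 kb or more, 697 regions within 2 kb of a coding gene end and 5456 regions outside coding genes. The genes were then ordered by their number of regions per 100 kb of extent, from the first to the last annotated base.

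Both libraries came from maxillary process cells of E12.5 wildtype C57BL/6 mice, and each was a DLX2 antibody library. They formed 1 group of 2 replicates, so that no conditions were compared and no test over samples could be made. On chromosomes 1 to 19, replicate 1 held 27789 peaks with a median of 6 fragments at the summit, and replicate 2 held 61053 peaks with a median of 9. The lists were used whole, and each holds more peaks than the paper reports for either replicate. Any later filter of the study was not applied, and the numbers of peaks and regions rest on that choice. Neither the labels nor the methods state that the libraries came from separate litters, so the spread between them may be technical. No control library was used here, so tagging directed by DLX2 and other tagging of the same chromatin cannot be told apart. Peak lists carry no RNA levels, and the labelled tissue was therefore not checked against expressed markers.

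DLX2 is a homeodomain transcription factor of the branchial arches and forebrain, and factors of its family bind AT-rich sites with a TAATT core. CUT&Tag uses an antibody to bring a transposase to the factor, which inserts sequencing adapters into nearby DNA so that fragments accumulate at occupied sites. Many enhancers of developmental genes lie in introns, of the gene they control or of a neighbour, so a region inside a gene names a place and not a target. The annotation used here gave gene extents without exons, and exons and introns were not told apart.

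A gene can have further transcription starts inside its extent, its own or those of another gene. Of the 3320 regions on chromosomes with listed promoter windows, 6 overlapped 7 windows of such starts. Each window holds the 250 bases before a start and the 50 bases after it, and 31396 windows on 18 chromosomes were searched. The 250 bases before the start are shown for 5 of them, because these are the member regions whose bases could be read. The sequences are from RefSeq for GRCm38.p6, written 5′ to 3′ on the strand of the gene, and capitals mark the bases covered by peaks of both replicates.
Il9r, chr11:32200280-32200529, minus strand: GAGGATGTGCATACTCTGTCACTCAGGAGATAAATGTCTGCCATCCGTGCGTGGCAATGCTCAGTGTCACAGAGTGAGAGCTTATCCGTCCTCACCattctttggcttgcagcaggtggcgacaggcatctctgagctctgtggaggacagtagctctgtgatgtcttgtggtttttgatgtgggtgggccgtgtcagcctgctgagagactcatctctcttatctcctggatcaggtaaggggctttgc
Zfp672, chr11:58323366-58323615, minus strand: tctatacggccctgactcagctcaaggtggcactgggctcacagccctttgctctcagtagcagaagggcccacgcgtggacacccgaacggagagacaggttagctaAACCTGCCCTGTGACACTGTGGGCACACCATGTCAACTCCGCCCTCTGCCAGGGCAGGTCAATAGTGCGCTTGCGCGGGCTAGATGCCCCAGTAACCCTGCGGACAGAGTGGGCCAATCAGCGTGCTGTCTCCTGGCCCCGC
Acacb, chr5:114165268-114165517, plus strand: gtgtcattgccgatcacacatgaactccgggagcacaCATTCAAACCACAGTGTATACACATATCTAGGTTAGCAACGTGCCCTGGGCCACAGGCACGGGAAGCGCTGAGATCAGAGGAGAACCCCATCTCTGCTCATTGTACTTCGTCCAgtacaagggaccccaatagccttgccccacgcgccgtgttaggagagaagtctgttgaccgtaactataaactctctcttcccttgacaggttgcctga
Zfp583, chr7:6330435-6330684, minus strand: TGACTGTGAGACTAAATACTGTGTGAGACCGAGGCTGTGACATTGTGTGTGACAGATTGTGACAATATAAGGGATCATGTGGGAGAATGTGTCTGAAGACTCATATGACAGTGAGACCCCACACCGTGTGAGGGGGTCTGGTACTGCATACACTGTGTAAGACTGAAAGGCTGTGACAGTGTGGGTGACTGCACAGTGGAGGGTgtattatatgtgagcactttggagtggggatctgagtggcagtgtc
Mesd, chr7:83892016-83892265, plus strand: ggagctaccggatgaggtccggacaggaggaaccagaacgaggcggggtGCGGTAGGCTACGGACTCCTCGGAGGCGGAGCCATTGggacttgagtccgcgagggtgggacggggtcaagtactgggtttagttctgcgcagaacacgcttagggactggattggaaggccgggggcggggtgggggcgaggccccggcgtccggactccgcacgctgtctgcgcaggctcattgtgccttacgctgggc
The *Zfp583* region covered the largest part of the shown bases, 204 of them, and the *Mesd* region the smallest, 37. *Zfp583* and *Zfp672* encode zinc finger proteins, and the fold enrichments in replicates 1 and 2 were 5.60 and 7.06 at *Zfp583* and 4.88 and 5.24 at *Zfp672*. *Acacb*, an acetyl-CoA carboxylase of fatty acid metabolism, had folds of 6.01 and 5.88. *Il9r*, the interleukin 9 receptor, had folds of 4.10 and 4.54, and *Mesd*, a chaperone of Wnt co-receptors, had 3.54 and 4.28. The sixth region lay in *Gask1b*, with folds of 3.605 and 5.24, and touched only bases after the listed start of *Gm36569*. The seventh window, also of *Zfp672*, shared 1 base with the region already shown.

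Of these 7 windows, none held the homeodomain words TAATTA or TAATTG in the 250 bases before the start on either strand, and none held the E-box CACGTG bound by MNT and its relatives. Among all 31396 windows, TAATTA was found in 4.81%, TAATTG in 7.20% and CACGTG in 6.02%. The RUNX word TGTGGT was found in 13.98% of all windows and in 2 of the 7, at *Il9r* and *Acacb*, and at *Acacb* alone among these it lay within the bases covered by both replicates. TAATTA and TAATTG share their first bases, so a window can hold both in overlapping letters. With 7 windows the counts are only a description. The windows ranged in GC content from 48.8% at *Zfp583* to 74.0% at the second *Zfp672* window, where the median of all windows was 52.4%.

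Of 412 microRNA hairpins listed inside the sequence searched, 1 overlapped a region. It was *Mir7226*, at chr4:118210505-118210564 on the minus strand within *Ptprf*, a receptor tyrosine phosphatase gene. The region had folds of 4.22 and 4.18 from 8 and 14 fragments. Its mature sequences are given from RefSeq, with the seed, bases 2 to 8, in capitals.
mmu-miR-7226-5p: gCCAGGGAaguugauugugugaaggg
mmu-miR-7226-3p: uGACACAGccauucucugagcag
The 2 arms have different seeds, and the peaks covered the whole hairpin in both replicates.

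The regions were short and of moderate enrichment. Their median length was 145 bp, with quartiles of 104 and 215 bp and a range from 1 to 1185 bp. Fold enrichment relates the fragments at a summit to the background around it in that library. In replicate 1 it ran from 3.19 to 15.0 with a median of 4.93, and the middle 50% of regions lay between 4.26 and 5.80. Replicate 2 ran from 2.54 to 13.4 with a median of 4.81, and its middle 50% lay between 4.09 and 5.97. The levels were thus close in both libraries, and the fold was higher in replicate 1 at 1819 regions and in replicate 2 at 1597. These folds rested on few fragments. The median number at the summit was 7 in replicate 1, with a range from 4 to 57, and 11 in replicate 2, with a range from 6 to 173.

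The replicates ordered the regions alike only in part. Over the 3416 regions, Spearman's coefficient was 0.445 between the folds and 0.545 between the fragment numbers, both given as descriptions, since regions are not replicates and both libraries share the reference genome. The summits of both replicates lay a median of 61 bp apart, and within 150 bp of each other at 82.9% of regions (81.6 to 84.1%). The rule keeps only peaks that overlap, which favours close summits, so these distances do not measure how well the replicates match. A fold of 5 or more in both replicates was reached by 1021 regions, or 29.9% (28.4 to 31.4%), and a fold of 10 or more in both by 15 regions, or 0.439% (0.266 to 0.723%). The share at a fold of 10 was 0.644% (0.326 to 1.26%) in genes of 300 kb or more and 0.574% (0.223 to 1.47%) near gene ends. Between genes it was 0.696% (0.508 to 0.954%), and each of these intervals overlapped that of the shorter genes. A −log10 q of 5 or more in both was reached by 466 regions, which were 27.8% of all shared regions that reached it. Some regions were pieces of one broader peak, since 112 of them shared their replicate 2 peak with another region and 8 their replicate 1 peak.

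**Figure D1:**
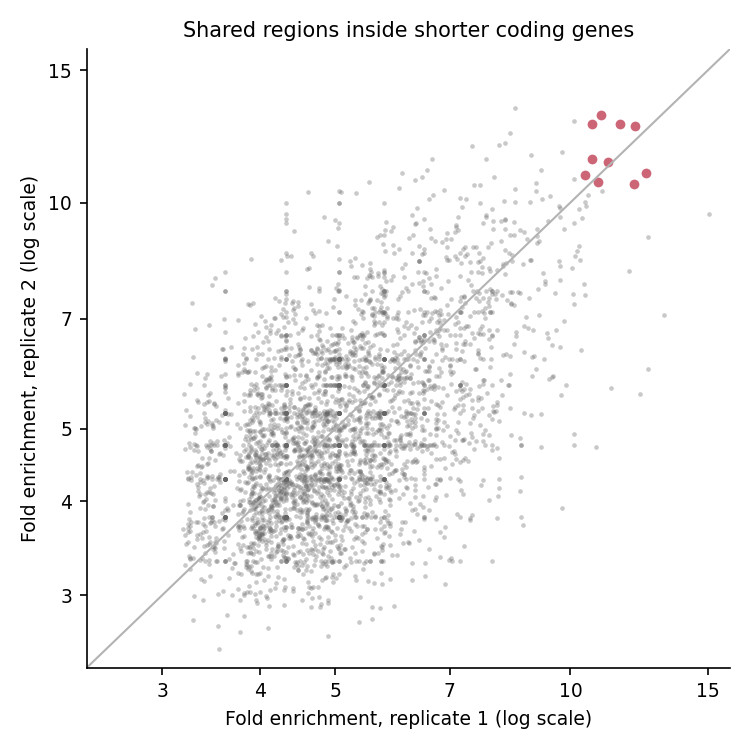
Fold enrichment over local background of each shared region inside shorter coding genes, in replicate 1 (horizontal, log scale) and replicate 2 (vertical, log scale). Each point is 1 of 3416 regions, the line marks equal folds, and the 10 larger coloured points are those that rank highest by the lower of their 2 folds; the cloud centres on the medians of 4.93 and 4.81, and the 10 coloured regions exceed 10 in both.

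A fold of 5 or more in both replicates was less frequent here than in very long genes or between genes. The share of 29.9% stood beside 38.7% (36.0 to 41.4%) for regions inside coding genes of 300 kb or more and 39.1% (37.8 to 40.4%) for intergenic regions. Regions near coding gene ends had the lowest share, 22.8% (19.9 to 26.1%). None of these intervals overlapped that of the shorter genes. They cover counting error only, and no test over samples was possible. Median folds in replicates 1 and 2 were 5.05 and 5.24 both for very long genes and for intergenic regions, and 4.73 and 4.57 for gene ends.

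Ranked by the lower of the 2 folds, the first 10 regions lay in 10 genes, and their folds are therefore a description. The first was in *Tcp10c* on chromosome 17 at 13367670-13367937, with folds of 12.1 and 12.65 from 17 fragments in replicate 1 and 29 in replicate 2. The region in *Sv2b*, a synaptic vesicle protein gene, was on chromosome 7 at 75194266-75194961 and had folds of 11.6 and 12.7. *Rab8b*, a small GTPase of vesicle transport, held a region on chromosome 9 at 66874123-66874607 with folds of 11.2 and 11.3. The 10 regions rested on more fragments than the median region, from 16 to 24 in replicate 1 and from 29 to 49 in replicate 2. Their folds were close in both libraries. The choice by the lower fold favours both traits, so neither measures how well the replicates match. *Slc25a54*, of the mitochondrial carrier family, had folds of 12.49 and 10.96. *Nf1*, neurofibromin, which lowers Ras activity, had folds of 10.95 and 13.1 at chromosome 11, 79357507-79357716. *B3glct*, a glucosyltransferase mutated in Peters plus syndrome, had folds of 10.7 and 11.4 from the largest numbers of fragments among the 10, 24 and 49. The other regions lay in the kinase gene *Map4k5* (10.7 and 12.7), the ciliary gene *Cep290* (10.8 and 10.6), the choline breakdown gene *Dmgdh* (12.1 and 10.6) and the zinc finger gene *Zfp64* (10.4 and 10.9).

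A region was found inside 2406 of the 16124 coding genes that had sequence allowed by the rule, or 14.9%. Peaks of replicate 1, shared or not, lay in such sequence of 5158 genes (32.0%), and those of replicate 2 in 7917 (49.1%). In 1900 genes each replicate had a peak without any that overlapped. Most host genes held few regions. Exactly 1 region was found in 1765 genes, 2 regions in 432, 3 in 118, 4 in 44, 5 in 26 and 6 or more in 21. The 209 genes with 3 or more regions were 1.3% of the eligible genes and held 820 of the 3416 regions. A region was held by 1 gene in 3394 cases and by 2 overlapping genes in 20. The last 2 regions lay in the *Ugt1a* cluster of glucuronosyltransferase genes, whose extents overlap, and were held by 6 and by 9 of its genes.

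Holding a region went with the length of the gene. Host genes had a median extent of 69.7 kb, against 23.5 kb for all eligible genes, and those with 3 or more regions had a median of 163 kb. A region was found in 4.74% of genes under 25 kb, in 15.0% of genes from 25 to 50 kb, in 26.4% from 50 to 100 kb, in 44.4% from 100 to 200 kb and in 60.9% from 200 to 300 kb. Over the 16124 genes, Spearman's coefficient between extent and number of regions was 0.375, as a description. The number per 100 kb ran the other way among genes that held any, from a median of 5.95 under 25 kb to 0.745 from 200 to 300 kb, because a single region in a short gene gives a high density. Of the 100 host genes with the most regions per 100 kb, 77 held 1 region and 97 were under 25 kb.

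Per length of sequence, the classes of extent differed little below 300 kb. In the 607 Mb allowed by the rule, shared regions numbered 5.63 per Mb. The classes ranged from 5.39 per Mb in genes of 50 to 100 kb to 5.96 per Mb in genes under 25 kb. Genes of 300 kb or more held 4.16 per Mb in 299 Mb, so that shorter genes had 1.35 times as many regions per Mb (1.27 to 1.44, exact conditional binomial interval for counting error). The same ratio was 1.55 for replicate 1 peaks and 1.75 for replicate 2 peaks. This higher density was not seen at stricter cuts on fold or −log10 q. With a fold of 5 or more in both replicates the ratio was 1.04 (0.936 to 1.17), from 1021 and 481 regions, and with a −log10 q of 5 or more it was 1.09 (0.926 to 1.29), from 466 and 210 regions. Regions near coding gene ends numbered 4.96 per Mb in 140 Mb.

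Peaks were denser in the shortest genes, and more of them went unshared. Replicate 1 peaks numbered 18.3 per Mb in genes under 25 kb and 15.4 per Mb in genes of 200 to 300 kb, and replicate 2 peaks 46.0 and 31.0 per Mb. The share of replicate 1 peaks that met a replicate 2 peak rose over the same classes from 32.5% (29.9 to 35.1%) to 38.6% (36.2 to 41.1%), with 40.3% (38.6 to 42.0%) in genes of 300 kb or more. The share of replicate 2 peaks that met a replicate 1 peak was 12.6% (11.5 to 13.8%) under 25 kb, 18.6% (17.3 to 20.1%) from 200 to 300 kb and 19.6% (18.6 to 20.6%) at 300 kb or more. Regions with a fold of 5 or more in both replicates numbered 1.48 per Mb under 25 kb and 1.998 per Mb from 200 to 300 kb.

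**Figure D2:**
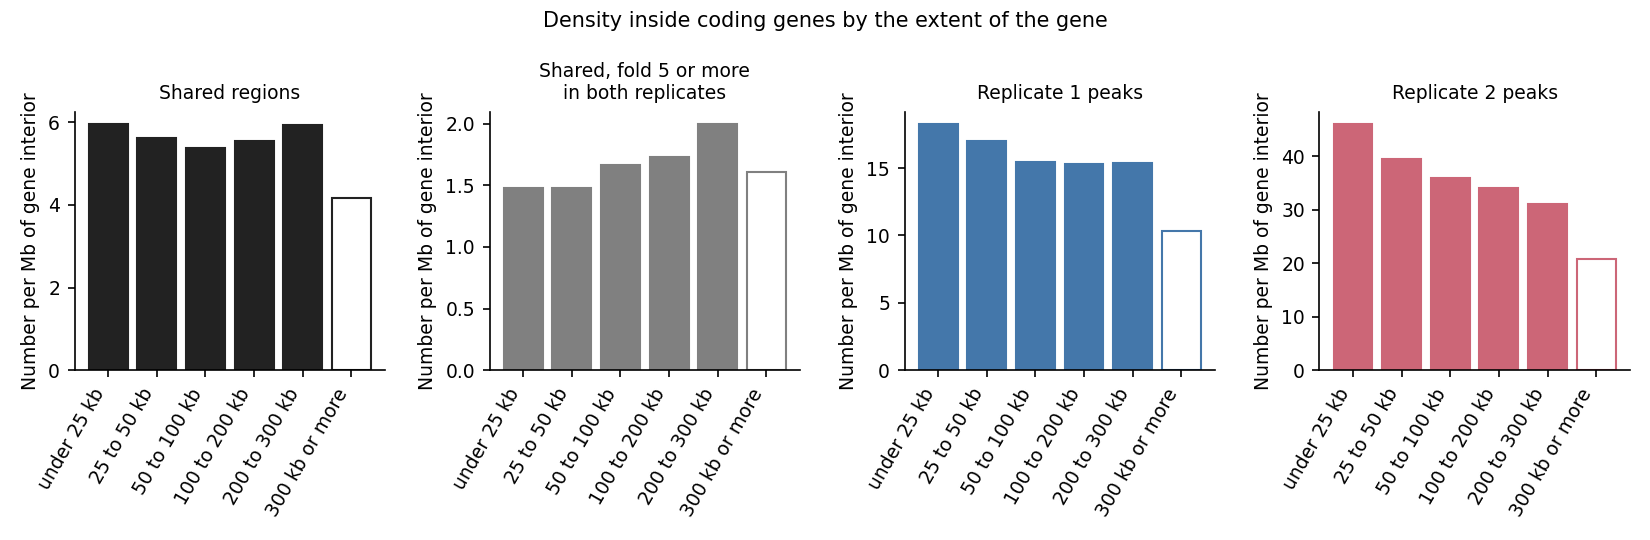
Number per Mb of gene interior, more than 2 kb from coding gene ends, of shared regions, shared regions with a fold of 5 or more in both replicates, replicate 1 peaks and replicate 2 peaks, by the extent of the gene. Filled bars are genes under 300 kb, open bars genes of 300 kb or more, and each panel has its own vertical scale from 0; peaks of each replicate were most numerous per Mb in genes under 25 kb and least in genes of 300 kb or more, whereas shared regions stayed between 5.39 and 5.96 per Mb below 300 kb.

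Among genes with 3 or more regions, the density had a median of 2.4002 per 100 kb and ran from 1.004 to 14.2. The 10 densest genes were of varied function. *Mroh2a* (chr1:88226991-88262289), of the maestro heat-like repeat family, came first with 5 regions in 35.3 kb, or 14.2 per 100 kb. Its folds ran from 3.55 to 4.20 in replicate 1 and from 2.54 to 3.31 in replicate 2, where 2.54 was the lowest fold of all 3416 regions. All 5 of its regions had a local background of more than 5 times the lowest of the library in both replicates, up to 3.30 fragments in replicate 1 and 10.01 in replicate 2, where the lowest were 0.387 and 1.101. The part of this background in the density was not tested, and the 5 regions rested on 4 peaks of replicate 2.

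Background of that height in either replicate was rare, with 16 of the 3416 regions, of which 11 had it in both replicates and 5 in replicate 1 alone, and 13 of the 16 lay in 3 of the 10 densest genes. *Asic4* (chr1:75450510-75474340), of the acid-sensing ion channel family, held 3 regions in 23.8 kb, all with background of that height in replicate 1 alone, at up to 2.35 fragments, beside up to 4.76 in replicate 2. *Sfi1* (chr11:3131850-3203347), which encodes a centrin-binding protein of the centrosome, held 6 regions in 71.5 kb, and 5 of them had raised background in both replicates, of up to 9.62 and 32.7 fragments. Its summits also held the most fragments of all regions, up to 57 in replicate 1 and 173 in replicate 2, with folds from 3.59 to 7.53 and from 3.04 to 7.50. The regions of *Asic4* rested on 2 peaks of replicate 2, and those of *Sfi1* on 5. Without regions of raised background, 7 of the 10 genes remained among the 10 densest.

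The other 7 genes held no region with such background. *Wfdc1* (chr8:119666365-119688020), a secreted protease inhibitor-like protein gene, held 3 regions in 21.7 kb, or 13.9 per 100 kb, with folds of 5.69, 3.33 and 4.9965 in replicate 1 and of 5.21, 5.42 and 5.42 in replicate 2. The last 2 of these regions lay under 1 replicate 2 peak. *Map3k21* (chr8:125910450-125947440), a mixed-lineage kinase, held 4 regions in 37.0 kb, or 10.8 per 100 kb, which rested on 3 peaks of replicate 2. At chromosome 8, 125927735-125928196, one region had folds of 10.1 and 9.39 from 18 and 29 fragments, whereas the other 3 had 5.37, 5.29 and 3.76 in replicate 1 and 5.46, 5.46 and 3.71 in replicate 2. *Rasal1* (chr5:120648040-120679597), which lowers Ras activity, held 3 regions in 31.6 kb, or 9.51 per 100 kb, and the region with the highest fold in replicate 1, 7.31, also had the highest in replicate 2, 6.80.

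*Crispld2* (chr8:119992438-120052794), a secreted protein gene studied in orofacial clefting, held 5 regions in 60.4 kb, or 8.28 per 100 kb. The 5 regions rested on 4 peaks of replicate 2. Their folds ran from 4.07 to 5.51 in replicate 1 and from 4.15 to 4.58 in replicate 2, and none reached 5 in both. Each region had between 7 and 10 fragments in replicate 1 and between 12 and 15 in replicate 2. *Crispld2* thus had its regions at moderate folds in both libraries, with background of at most 1.005 and 2.49 fragments.

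The 3 genes with the most regions, *Slc35f3*, *Kcnj6* and *Sez6l*, spanned from 159 to 258 kb. Next came 5 genes tied at 8 regions, of which *Pcnx2* and *Dok5* were the densest. *Slc35f3* (chr8:126138398-126395987), a solute carrier gene linked to thiamine transport, held 16 regions in 258 kb, or 6.21 per 100 kb, where replicate 1 had 19 peaks and replicate 2 had 22. Its folds ran from 4.09 to 8.71 in replicate 1 and from 3.75 to 6.85 in replicate 2, and the 16 regions rested on 14 peaks of replicate 2. The same region, at chromosome 8, 126260405-126260729, had the highest fold in both. *Kcnj6* (chr16:94744980-94997696), which encodes the potassium channel GIRK2, held 13 regions in 253 kb, or 5.14 per 100 kb, with folds from 3.605 to 7.43 and from 3.28 to 8.12. Here the highest folds fell in different regions. The replicate 1 maximum was at 94926626-94926894, where replicate 2 had 5.64, and the replicate 2 maximum was at 94775291-94775631, where replicate 1 had 5.76.

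*Sez6l* (chr5:112419151-112578535), a neuronal membrane protein gene, held 10 regions in 159 kb, or 6.27 per 100 kb, from 14 peaks in replicate 1 and 15 in replicate 2. The folds ran from 3.52 to 7.89 and from 3.52 to 8.06, and the region nearest a gene end, 2.99 kb away, was the lowest in both replicates. *Pcnx2* (chr8:125751504-125898332), a pecanex family gene, held 8 regions in 147 kb, or 5.45 per 100 kb, with folds from 3.39 to 8.73 and from 3.48 to 7.76. *Dok5* (chr2:170731807-170879775), an adaptor of receptor tyrosine kinases, held 8 regions in 148 kb, or 5.41 per 100 kb, with folds from 4.32 to 10.4 and from 3.62 to 7.53. *Slc35f3* and *Sez6l* were among both the 10 densest genes and the 3 with the most regions. The other genes at 8 regions, named after their values were seen, were *Disc1* (chr8:125048767-125265143) at 3.697 per 100 kb, *Dnah8* (chr17:30626935-30875762) at 3.22 and *Ablim1* (chr19:57032733-57315344) at 2.83.

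**Figure D3:**
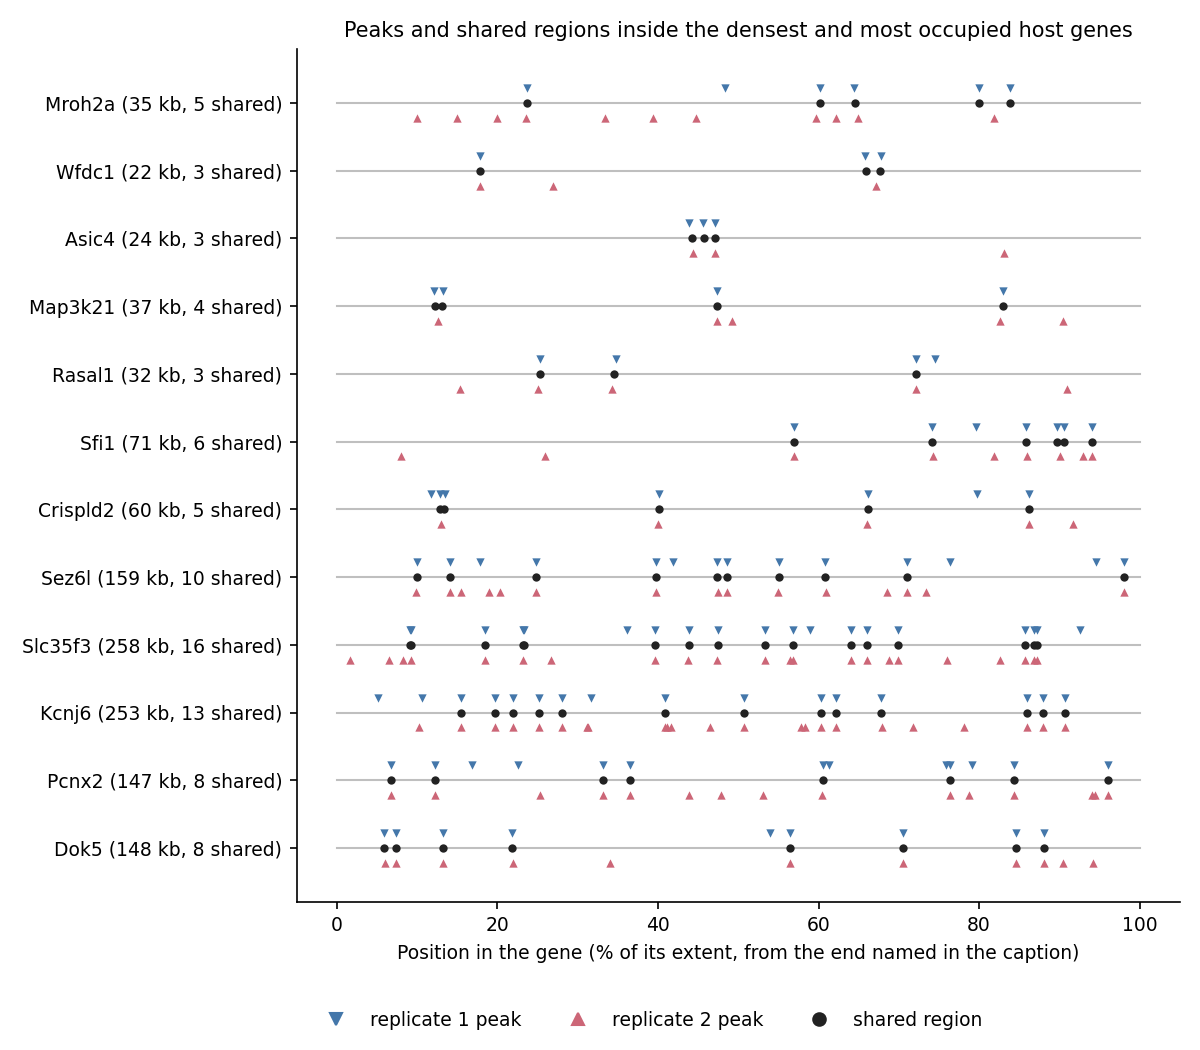
Peaks of replicate 1 (triangles above each line), peaks of replicate 2 (triangles below) and shared regions (dots on the line) inside 9 of the 10 densest genes, the 3 genes with the most regions and *Pcnx2* and *Dok5*, by position as a percentage of the extent of the gene. Position runs from the 5′ end, or from the end with the lower coordinate for *Asic4*, *Dok5*, *Rasal1*, *Sfi1* and *Wfdc1*, whose strand was not listed; regions of *Slc35f3*, *Kcnj6* and *Sez6l* spread along the gene, and the 3 regions of *Asic4* sit together.

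Regions of a gene were mostly far apart. The gap between neighbouring regions of a gene had a median of 20.5 kb, with quartiles of 8.14 and 44.4 kb, over 1043 gaps, and 90 gaps were under 1 kb. Distance from the nearest coding gene end had a median of 18.04 kb and reached 145 kb. Nearest to the limit of the rule on the inside was a region of *Ptk2b*, 2011 bp from a gene end, with folds of 3.24 and 3.97, and nearest on the outside was one of *Sftpd*, at 1992 bp, with folds of 5.05 and 3.81. The longest host was *Atp2b2*, with 298.8 kb and 3 regions, and the shortest gene above 300 kb with a shared region was *Zfp423*, with 300.2 kb and 1 region.

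When genes with fewer than 3 regions were included, the 5 densest were all short. *Lefty2* (chr1:180893108-180899107), an inhibitor of Nodal signalling, came first with 2 regions in 6.0 kb, or 33.3 per 100 kb. The regions had folds of 5.35 and 6.83 in replicate 1, from 10 and 13 fragments, and lay under 1 peak of replicate 2 with a fold of 5.94 from 21 fragments. The cytochrome P450 gene *Cyp2w1* had 2 regions in 6.99 kb, the uncharacterised *LOC115488789* had 2 in 9.53 kb and the nucleoside diphosphate kinase family gene *Nme6* had 2 in 10.3 kb. *H1f8*, the oocyte linker histone, had 1 region in 5.31 kb, with folds of 4.71 and 4.50. These densities, from 18.8 to 33.3 per 100 kb, each rested on 1 or 2 regions.

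Regions were unevenly spread over the genome. In 301 windows of 5 Mb with at least 1 Mb of allowed sequence, shared regions per Mb of that sequence had a median of 5.14 and ranged from 0 to 29.0, with 3 windows at 0. The 10 densest windows held 316 regions, 9.25% of the total, in 2.65% of the allowed sequence. The densest, at 125 to 130 Mb of chromosome 8, held 39 regions in 7 genes, among them *Slc35f3*, *Pcnx2*, *Map3k21* and the schizophrenia-associated *Disc1* with 8 regions. *Sez6l* lay in the next window, at 110 to 115 Mb of chromosome 5, which held 57 regions in 25 genes at 24.99 per Mb. *Wfdc1* lay in a window at 115 to 120 Mb of chromosome 8 with 20.2 regions per Mb, whereas the regions of *Crispld2* fell in the neighbouring window at 8.98 per Mb, and *Kcnj6* lay at 90 to 95 Mb of chromosome 16 in a window of 19.3 per Mb. In all, 5 of the 10 densest genes had their regions in the 30 densest windows, which held 704 regions, 23.7% of those in the 301 windows. The windows were ranked by these same regions, so the count of genes is only a description.

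The peaks of each replicate varied with the same windows. Spearman's coefficient between replicate 1 peaks and replicate 2 peaks per Mb was 0.851 over the 301 windows, given without a test since the windows share base composition and gene content between libraries. By chromosome, shared regions ranged from 3.89 per Mb on chromosome 12 to 7.99 per Mb on chromosome 8, with chromosomes 17 and 5 at 7.92 and 7.47. Replicate 1 peaks ranged from 13.6 per Mb to 20.7 per Mb and replicate 2 peaks from 27.6 to 46.9, and both were highest on chromosome 8. The part of this local density of peaks in the ranking of genes was not tested.

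**Figure D4:**
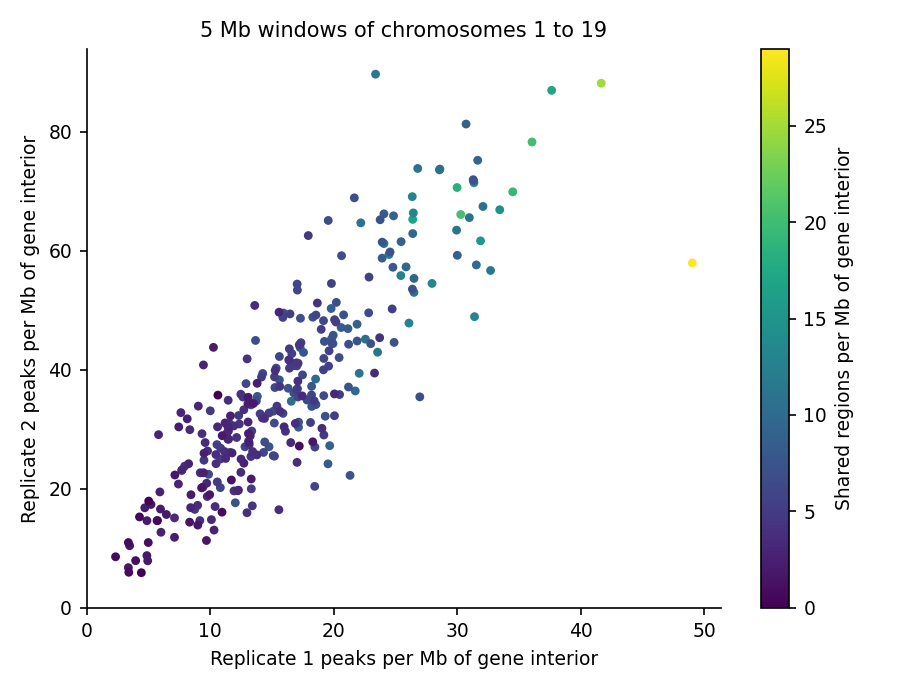
Peaks per Mb of gene interior in 301 windows of 5 Mb on chromosomes 1 to 19, for replicate 1 (horizontal) and replicate 2 (vertical), with shared regions per Mb as the colour. Each point is 1 window; windows with many peaks in one replicate had many in the other (Spearman's coefficient 0.851), and the brightest point is the chromosome 8 window with 29.0 shared regions per Mb.

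Within genes, the regions followed no strong gradient. For 2650 regions in genes of known strand, 5 equal sections of the extent, from the 5′ to the 3′ end, held 19.8%, 19.1%, 20.5%, 19.2% and 21.4% (19.9 to 23.0%) of them. Peaks of single replicates rose more toward the 3′ end, from 18.9% to 22.1% (21.2 to 23.1%) in replicate 1 and from 18.3% to 22.6% (22.01 to 23.25%) in replicate 2. A listed start of any gene lay within 2 kb of 108 of 3320 regions, or 3.25% (2.70 to 3.91%). The same share was 3.24% for replicate 1 peaks and 3.86% for replicate 2 peaks, and 2.89% of the allowed sequence lay that close to one.

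Lists of genes known from craniofacial development, signalling and cell identity were then counted against the background of 14.9% of eligible genes and 5.64 regions per Mb of gene interior. In every list given here, as among all eligible genes, under 50% of genes held a region, so that the median gene held 0. The lists differ in gene length, and their median extents are given where the share stands far from the background. Among all eligible genes the share rose from 4.74% under 25 kb to 60.9% from 200 to 300 kb, and the background was not matched for length. The shares of the lists carry no interval, and no contrast with the background was tested.

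The craniofacial transcription factors stood near the background, with 9 of 59 eligible genes (15.3%) and 6.21 regions per Mb. *Runx1*, a Runt-domain factor, held 4 regions, with folds from 3.89 to 7.51 in replicate 1 and from 4.49 to 7.43 in replicate 2. *Eya2*, a transcriptional co-activator, held 3 with low folds, at most 4.87 and 3.70. *Ebf2*, *Nfib*, *Alx4* and *Pax7* held 2 each. Of these, *Ebf2* reached the highest folds, 8.23 and 10.04, from 12 and 23 fragments. Ribosomal protein genes are short, with a median extent of 4.91 kb, and held no region in 23 genes. A count of 0 there allows a share of up to 13.0%, and their allowed sequence was 0.0361 Mb. Of all eligible genes under 25 kb, 4.74% held a region. A count of 0 in so little sequence therefore does not show fewer regions than in other short genes.

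Among signalling pathways, Hedgehog and BMP and TGF-beta genes exceeded the background in both share and regions per Mb, and Hippo genes in share alone. In the Hedgehog list 8 of 17 genes held a region (47.1%), with 10.9 regions per Mb and a median extent of 65.1 kb. Its hosts included receptors and inhibitors as well as the effector of the pathway. *Hhip*, a membrane inhibitor of the ligands, held 3 regions with folds from 4.18 to 5.05 in replicate 1 and from 5.24 to 6.38 in replicate 2. *Gli2*, a transcriptional effector, held 3 with folds from 4.33 to 4.36 and from 3.57 to 5.34. *Hhat*, which acylates the ligands, held 3, and *Boc*, a co-receptor, held 2 with folds of at most 4.76 and 7.20. Replicate 1 and replicate 2 peaks were also denser in this list, with 25.5 and 56.0 per Mb against 15.99 and 36.3 over all eligible genes.

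In the BMP and TGF-beta list 14 of 49 genes held a region (28.6%), with 8.61 regions per Mb and a median extent of 40.6 kb. *Tgfbr3*, the co-receptor betaglycan, held 5 regions with folds from 3.24 to 6.70 in replicate 1 and from 3.62 to 7.95 in replicate 2. *Bmper*, an extracellular BMP modulator, held 3 with folds of at most 5.18 and 6.19. *Acvr1b*, a type I receptor, and *Smad6*, an inhibitory Smad, held 2 each. Here the peaks of replicate 1 were as dense as over all genes, at 16.1 per Mb, while those of replicate 2 stood at 44.2.

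The Wnt list stood near the background in share, with 8 of 64 genes and 5.14 regions per Mb. *Ror2*, a Wnt5a receptor, held 4 regions with folds from 4.82 to 7.32 in replicate 1 and from 4.56 to 6.53 in replicate 2. *Tcf7l2*, a transcriptional effector, the formin *Daam2* and the co-receptor *Lrp5* held 3 each, and *Tcf7l2* reached the highest fold of these in replicate 2, 9.18 from 24 fragments. In the Notch list 3 of 22 genes held a region (13.6%), the receptors *Notch3* with 2 and *Notch4* with 1 and the ligand *Dll4* with 1. The FGF list held fewer. Of its 29 genes 2 held a region (6.90%), the receptor *Fgfr4* and the adaptor *Frs2* with 1 each, at a median extent of 22.85 kb. In the Hippo list 6 of 22 genes did (27.3%), among them the effector *Tead1* with 2 and the kinase *Lats2* with 1, and the density was 3.83 per Mb at a median extent of 73.2 kb.

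Extracellular matrix genes were hosts more often than all eligible genes, and were also longer. In their list 17 of 53 genes held a region (32.1%) at 5.99 per Mb, with a median extent of 61.9 kb. *Adamtsl3* held 4 regions with folds of up to 9.69 and 9.58, and the collagen gene *Col5a1* held 3 with folds of up to 5.09 and 5.80.

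Axon guidance genes held a region in 11 of 43 (25.6%) at 4.94 per Mb, with a median extent of 44.4 kb. The receptor *Ephb2* led them with 5 regions, whose folds were at most 5.04 and 6.15. The ligand gene *Efna5* held 2, of which the higher reached 11.9 in replicate 1 and the higher in replicate 2 was 8.09. Chromatin regulators held a region in 21 of 76 (27.6%) at 4.42 per Mb, with a median extent of 68.9 kb. Among them, the remodellers *Chd6* and *Chd7* had 2 each. Osteoblast and mineralization genes held a region in 4 of 20 at 5.40 per Mb. *Vdr*, the vitamin D receptor, had folds of 7.15 and 6.50, and *Dmp1*, a matrix protein of bone, 6.49 and 5.24. *Mepe*, another bone matrix protein, held 2 regions that shared 1 replicate 2 peak and had raised background in replicate 1 alone, of up to 2.23 fragments, beside 4.73 in replicate 2. *Alpl*, the alkaline phosphatase of bone, had folds of 4.04 and 3.63.

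Markers of other cell types were counted too, since dissected tissue can hold them. Endothelial markers had the highest density of the lists, 14.3 per Mb, with a region in 8 of 22 genes (36.4%) and a median extent of 39.5 kb. *Erg*, an ETS factor of endothelium and cartilage, held 7 of the 17 regions, with folds from 3.34 to 6.55 in replicate 1 and from 3.94 to 7.61 in replicate 2. Among VEGF receptors, *Flt1* held 3 and *Flt4* held 2, and *Prox1*, of lymphatic endothelium, held 1 with folds of 8.35 and 8.57. Blood and macrophage markers held a region in 6 of 14 genes (42.9%) at 11.6 per Mb, with a median extent of 29.5 kb. Of their 9 regions, 4 were those of *Runx1*, which is also on the craniofacial list. Muscle, neuronal and glial, and epithelial markers held a region in 3 of 14 (21.4%), 4 of 19 (21.1%) and 3 of 23 (13.0%), at 5.25, 4.63 and 3.88 per Mb. Peaks of single replicates were also dense in the endothelial list, at 29.5 and 60.7 per Mb. *Erg* lay at 95 to 100 Mb of chromosome 16, in a window of 18.4 shared regions per Mb, its own included. *Runx1* lay in the neighbouring window at 90 to 95 Mb, with 19.3 per Mb, where the median window had 5.14. The parts of local peak density and of cell composition in these counts were not tested.

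**Figure D5:**
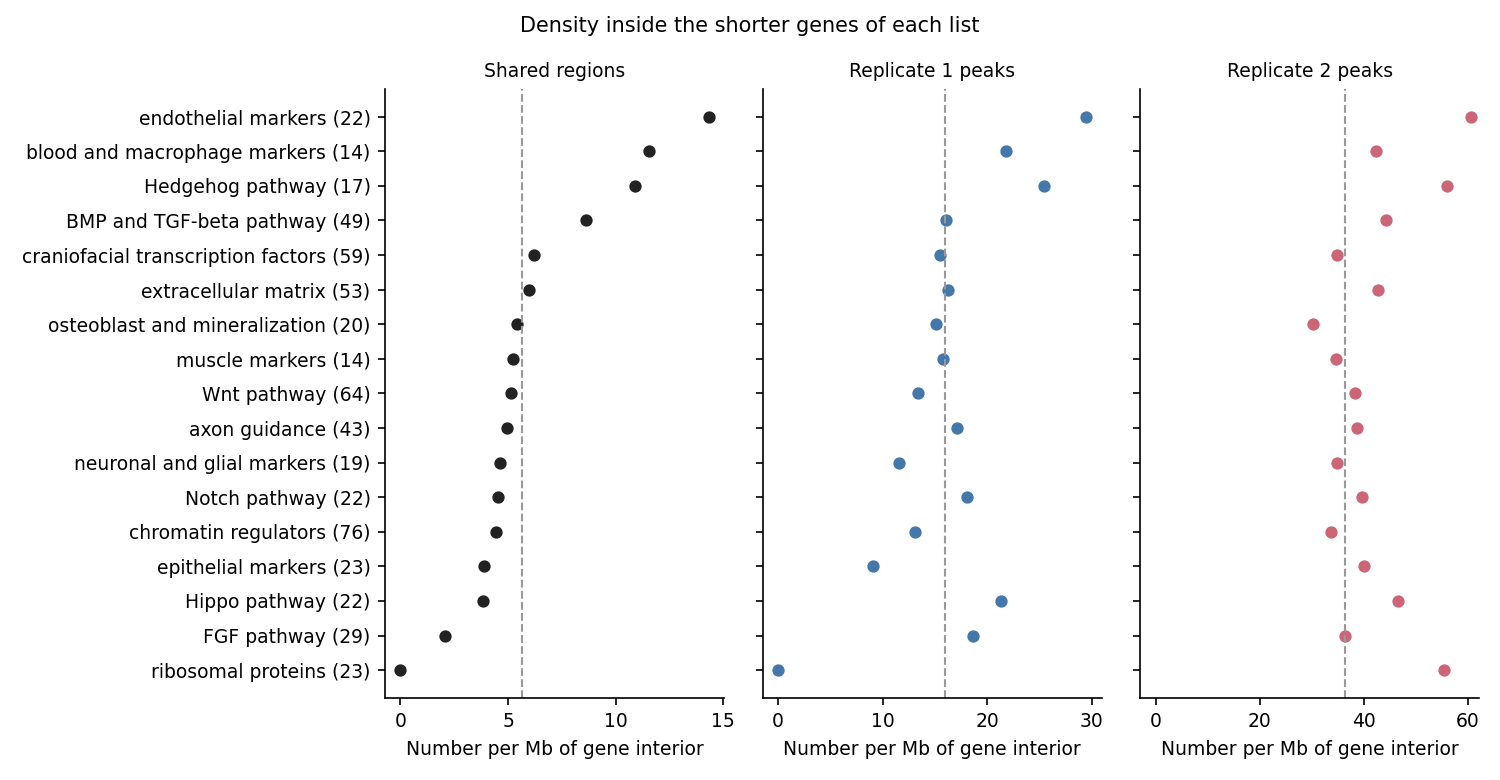
Shared regions, replicate 1 peaks and replicate 2 peaks per Mb of gene interior for the genes under 300 kb of each list, with the number of eligible genes in brackets. Dashed lines mark all eligible genes, at 5.64, 15.99 and 36.3 per Mb. The endothelial list (14.3), the blood and macrophage list (11.6) and the Hedgehog list (10.9) stood highest in shared regions. The ribosomal protein list had none in 0.0361 Mb of allowed sequence.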

How the data were processed

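DLX2 CUT&Tag peak lists of 2 libraries were used, numbered as replicates 1 and 2 by the order of their records. The submitters' processing notes name Trim Galore 0.4.5, Bowtie 1.1.2 and MACS2 2.2.7 with the build mm10, whereas the methods of the study name bowtie2 and another Trim Galore version. The labels describe sonicated nuclei, and the methods a transposase kit. Peaks were called by the authors per library, and the lists were used whole. Settings of a later filter on peaks are not given in the sources used here. For each peak, the deposited values are a fold, which is a ratio over local background, the −log10 p-value and −log10 q-value of the caller, a score of 10 times the −log10 q in whole numbers, and the summit as bases from the peak start. Library depth was not used here. Fragments at the summit and the background were recovered from fold and −log10 p, taking fold as fragments plus 1 over background plus 1 and p as a Poisson tail, and 100% of peaks gave a whole number within 0.001. Fragment numbers are thus inferred.

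Regions were placed on RefSeq gene extents of GRCm38.p6, leaving out genes listed before position 3000000. A region counted for every coding gene that held it. Densities per Mb used the allowed sequence, and those per 100 kb the whole extent of the gene. Strand came from listed promoters. Named are the 10 densest genes with 3 or more regions, the 5 with most regions (ties taken by density), the 5 densest of all, the 10 regions with the highest lower fold, up to 4 hosts per gene list, and the items nearest the limits. Some of these genes and lists are not reported here. Further genes, *Alx4*, *Pax7*, *Disc1*, *Dnah8* and *Ablim1* as hosts and those at listed promoters and hairpins, were named after their values were seen. The members and gene lists were chosen with earlier results of these data known. Intervals printed with shares are 95% Wilson intervals and those with density ratios exact conditional binomial intervals, both for counting error only. Shares of genes in the lists and in the classes of extent carry no interval. With 1 group and no control library, no test was made. The overlap, classing and fragment recovery were tested on simulated data. Motifs around summits were not analysed here, for want of a genome sequence. Computation used pandas 2.3.3, numpy 2.4.6, statsmodels 0.14.6 and scipy 1.17.1 under Python 3.11.15, with figures from matplotlib 3.10.9.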

Additional observations from a re-analysis of the deposited data

Results flagged for a closer look

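Chromosome X was outside the rule, and 18 regions shared by both replicates were found inside its coding genes of less than 300 kb. They came from 50 peaks of replicate 1 and 193 of replicate 2 in 27.1 Mb of allowed sequence. The density was 0.665 shared regions per Mb on chromosome X, where chromosomes 1 to 19 ranged from 3.89 to 7.99. Peaks numbered 1.85 per Mb in replicate 1 and 7.13 in replicate 2, below the lowest chromosome of each replicate, with 13.6 and 27.6 per Mb.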

How the results depend on the processing

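Of 58 alternatives to the main values, 27 left the value within its margin and 31 moved it. Most of these values are counts or shares, which have no direction to reverse. The density ratio stayed above 1, but its interval included 1 with a −log10 q of at least 5 and with a fold of at least 5. The margin was 1.5 times for counts and the counting interval for shares, ratios and Spearman's coefficient. A −log10 q of at least 5 left 466 regions, 27.8% of shared regions, in 417 genes, 5 of them with 3 or more, a density ratio of 1.09 against very long genes and a Spearman's coefficient of 0.398 between folds. With a fold of at least 5, the values were 1021 regions, 26.9%, 862 genes, 25 with 3 or more, a ratio of 1.04 and a coefficient of 0.364. With 50% of each peak in common, 1958 regions, 1540 genes and 79 genes with 3 or more were left, and the coefficient was 0.535. The share was 27.1% at over 5 kb from gene ends, 29.6% with the ends of genes of every type and 26.3% with an extent limit of 200 kb, which also gave 132 genes with 3 or more regions and a ratio of 1.21. These settings keep fewer peaks or less sequence by construction. With either replicate left out, regions numbered 9710 to 22070, the share was 34.9 to 36.2%, host genes 5158 to 7917, genes with 3 or more 1077 to 2815 and the ratio 1.55 to 1.75.

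The order of genes depended on these choices. Of the 10 densest genes, 3 stayed among the 10 densest with a −log10 q of at least 5, 4 with a fold of at least 5, 4 with 50% in common, 5 with summits within 150 bp, 7 at over 5 kb, 7 with ends of every gene type, 9 at 200 kb, 1 without replicate 1, 3 without replicate 2 and 8 when density was taken over the interior alone. The removal of regions with raised background was chosen after seeing the data and left 3400 regions and 206 genes with 3 or more. For 18 named genes, 67 of 180 alternatives moved the number of regions. No paired analysis was possible because the libraries form 1 group. The planned motif windows around summits were not run, for want of a genome sequence. Regions rested on a median of 7 and 11 fragments.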
